A study of Mus musculus with 6 samples.

Results

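The genes described here are 35 genes of glycolysis and of the pentose phosphate pathway, with the transporters that bring glucose into the cell and carry lactate out of it. They were picked by symbol, with earlier results of these data known, as 35 of the 41549 genes listed in a table of mRNA counts. Of these, 27 belong to glycolysis and transport and 8 to the pentose phosphate pathway. Aldoa is listed under 2 rows, and the row with 192824 reads was used in place of the row with 33 reads.

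The libraries came from macrophages (Mφs) of wild type mice of the C57Bl/6 N strain. Bone marrow cells were grown into naïve Mφs with macrophage colony-stimulating factor, transfected by lipofection with a locked nucleic acid oligonucleotide, and then given IL-4 and IL-13, which drive the anti-inflammatory state called M2. In the αGlu group the oligonucleotide was antisense to 5′tRF-Glu(CTC), which is cut from the front part of a glutamate tRNA, and in the Ctr group it was a control antisense. Each group has 3 libraries of poly(A) RNA prepared with a stranded kit, and the study describes its replicates as independent experiments. Both groups thus share the differentiation, the transfection and the cytokines, and the level of the fragment itself was not measured by these libraries. No untransfected and no unpolarized Mφs were among the libraries used here, so values are relative to control-transfected M2 Mφs.

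The oligonucleotide is shown because it defines the αGlu group. It is written 5′ to 3′ with DNA letters, and in the fragment the capitals mark the bases that pair with it.
Antisense to 5′tRF-Glu(CTC): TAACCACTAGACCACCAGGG
Targeted stretch of the fragment: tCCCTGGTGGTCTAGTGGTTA

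Glycolysis splits glucose into pyruvate, which lactate dehydrogenase can reduce to lactate, and its flux is set mainly where glucose enters, where hexokinase traps it, and where phosphofructokinase commits it. The pentose phosphate pathway leaves glycolysis at glucose 6-phosphate: its oxidative arm yields NADPH and ribulose 5-phosphate, and its non-oxidative arm, run by transketolase and transaldolase, returns sugars to glycolysis or supplies ribose for nucleotides. Macrophages activated by bacterial products or interferon are known for high glycolysis with lactate release, and those activated by IL-4 for greater use of oxidative metabolism, although they also consume glucose.

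Total counts were between 17912831 and 30386653 per library, and all 35 members were among the 11933 genes with enough counts to be tested. αGlu 1 stood apart from αGlu 2 and αGlu 3. Across the genes tested, its log2 CPM (counts scaled to a library size adjusted by the trimmed mean of M-values) correlated with those of αGlu 2 and αGlu 3 at a Pearson r of 0.929 each and with those of the Ctr libraries at 0.966 to 0.982, whereas αGlu 2 and αGlu 3 correlated at 0.992. Counts of members and the log2 fold changes of members described one by one are therefore given for all 6 libraries and again without αGlu 1, which leaves 3 Ctr against 2 αGlu libraries, and sums and shares are given for each library. αGlu 1 was singled out after its values were seen, and leaving it out narrows the spread within αGlu. Standard errors and adjusted p-values without αGlu 1 are therefore descriptive only. As these are bulk libraries, fewer cells with a transcript and less of it per cell cannot be told apart.

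Most genes of glycolysis had higher mRNA levels in αGlu 2 and αGlu 3 than in any Ctr library, most pentose phosphate genes had lower ones, and αGlu 1 shared the second pattern in part and the first for few genes. With all 6 libraries, 20 of the 27 genes of glycolysis and transport had a positive log2 fold change (αGlu over Ctr) and 6 of the 8 pentose phosphate genes a negative one. The median log2 fold change was 0.35 for the first set and -0.35 for the second, beside 0.016 over all genes tested. The extremes were Slc16a3, encoding the lactate exporter MCT4, at 3.17 ± 0.95 (log2, standard error, n = 3 per group) and Slc16a1, encoding the related transporter MCT1, at -0.94 ± 0.20.

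No member passed the threshold with all 6 libraries, which combined an absolute log2 fold change above 1 with an adjusted p under 0.1 by edgeR's quasi-likelihood test with Benjamini-Hochberg adjustment over 11933 genes. The same test called 0 of all genes (0.0%), limma-voom 0 and DESeq2 1117. At an unadjusted p under 0.05 there were 14 members (40.0%), beside 24.7% of all genes tested. Of these, 8 were higher in αGlu (12.7% of all genes were), each in glycolysis or transport, and 6 were lower (11.9% of all genes were), of which 3 belonged to glycolysis and transport and 3 to the pentose phosphate pathway. Adjusted p-values of these 14 members lay between 0.149 for Tkt and 0.197 for Bpgm. DESeq2 called 5 members, namely Slc2a6, Pfkl, Pfkfb3, Tpi1 and Slc16a3, which is 14.3% of them beside 8.13% of the genes it tested. For Slc2a1, Gapdh, Ldha and Taldo1 the DESeq2 adjusted p was 0.143, 0.116, 0.165 and 0.159, above the threshold.

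Without αGlu 1, the edgeR test called 10 of the 35 members (28.6%), beside 18.6% of the 12340 genes then tested. Those that rose were Slc2a1, Slc2a6, Pfkl, Pfkfb3, Aldoc, Tpi1, Gapdh, Ldha and Slc16a3, and Pfkp was the one that fell. An adjusted p under 0.1 without a limit on the fold change was reached by 30 of 35 members (85.7%), beside 49.1% of all genes. Among them, 18 genes of glycolysis and transport and 2 pentose phosphate genes were higher in αGlu (20 in all, where 23.5% of all genes were), and 4 and 6 were lower (10 in all, where 25.6% of all genes were). The median log2 fold change of glycolysis and transport was then 0.51 and that of the pentose phosphate pathway -0.44, beside 0.013 over all genes.

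The αGlu libraries were also placed one by one against the range of the 3 Ctr libraries. In αGlu 2, 21 of 35 members were above the highest Ctr library (60.0%, beside 39.7% of all genes) and 10 were below the lowest (28.6%, beside 37.3%). In αGlu 3, 21 were above (60.0%, beside 39.1%) and 12 below (34.3%, beside 37.3%), so that in both libraries the share of members below the Ctr range was under that of all genes. In αGlu 1, 6 members were above the Ctr range (17.1%, beside 28.0%), 11 inside it and 18 below it (51.4%, beside 29.4% of all genes), and 15 of the 18 were genes of glycolysis and transport. Only 10 members (28.6%) had no overlap between the groups in CPM, beside 30.2% of all genes: 4 higher in αGlu, Slc2a3, Hk1, Pfkfb3 and Bpgm (14.2% of all genes were), and 6 lower, Pfkp, Pfkfb4, Slc16a1, Pgd, Rpia and Tkt (15.9% of all genes were).

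**Figure D1:**
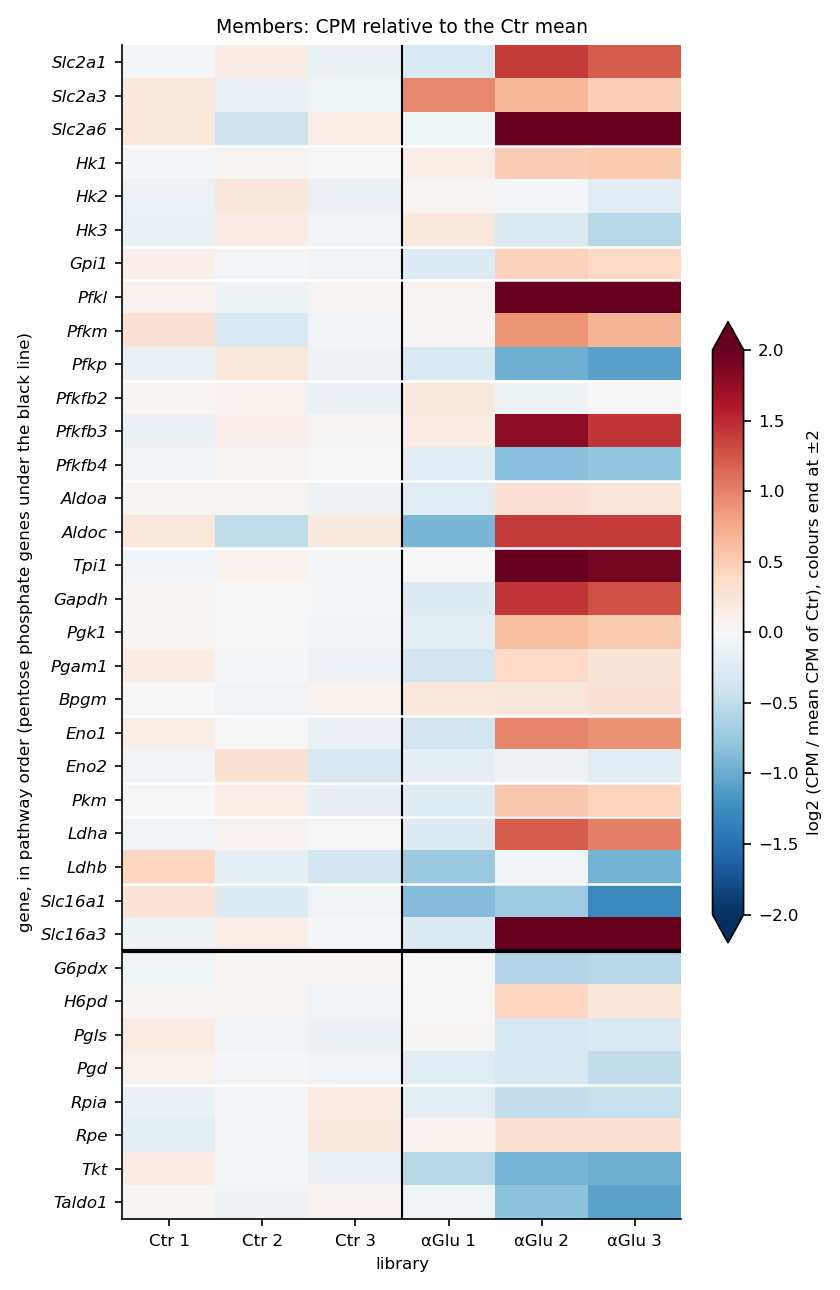
Log2 ratio of CPM to the mean of the 3 Ctr libraries for the 35 members (rows, in pathway order, with the pentose phosphate genes under the black horizontal line) in the 6 libraries (columns, Ctr left and αGlu right of the vertical line). Red is higher and blue lower than the Ctr mean, and colours end at ±2: αGlu 2 and αGlu 3 were above all Ctr libraries for 21 members each, and αGlu 1 for 6.

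Glucose enters Mφs chiefly through GLUT1, the product of Slc2a1 (ENSMUSG00000028645, chr4:119108711-119137983, plus strand, GRCm38). Slc2a1 was at 53.7, 60.3 and 49.6 CPM in Ctr 1, 2 and 3 and at 44.2, 144 and 126 CPM in αGlu 1, 2 and 3. αGlu 2 and αGlu 3 were thus far above the Ctr libraries, with αGlu 1 below all of them. The log2 fold change was 0.94 ± 0.42 (edgeR adjusted p = 0.224) with all 6 libraries and 1.30 ± 0.11 (adjusted p = 0.000332) without αGlu 1.

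Slc2a6 (ENSMUSG00000036067, chr2:27021363-27027998, minus strand), whose product GLUT6 is a hexose transporter of lysosomal membranes, was at 44.4, 28.9 and 42.3 CPM in the Ctr libraries and at 36.4, 225 and 275 CPM in αGlu 1, 2 and 3. Here αGlu 1 was within the Ctr range, and the other two αGlu libraries were above it. The fold change was 4.65 over all libraries (log2 2.22 ± 0.71, edgeR adjusted p = 0.163) and 6.47 without αGlu 1 (adjusted p = 0.000205). Slc2a3, encoding the high-affinity transporter GLUT3, was scarce, at 2.36, 1.88 and 1.95 CPM in Ctr and 4.01, 3.27 and 2.86 CPM in αGlu. Here αGlu 1 was the highest library, and the groups did not overlap (log2 0.71 ± 0.21, edgeR adjusted p = 0.16; without αGlu 1 0.57 ± 0.22, adjusted p = 0.0905).

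The 3 hexokinases, which phosphorylate glucose, had no common direction. Hk3 gave most of the hexokinase mRNA, with 82.7% to 89.2% of the family's TPM (reads scaled by transcript length and to 1 total per library) in the 6 libraries. Hk2, the isoform most often induced by glycolytic stimuli, was at 98.4, 124 and 97.0 CPM in the Ctr libraries against 111, 104 and 91.5 CPM in αGlu. The groups overlapped, with αGlu 3 below the lowest and Ctr 2 above the highest library of the other group. Its log2 fold change was -0.06 ± 0.13 (edgeR adjusted p = 0.790), and -0.13 ± 0.13 without αGlu 1. Hk1, the widely expressed isoform, was at 94.6, 100.1 and 95.9 CPM in the Ctr libraries against 106, 137 and 139.7 CPM in αGlu. Each αGlu library was above every Ctr library, by a small margin in αGlu 1 (log2 0.40 ± 0.12, edgeR adjusted p = 0.161; without αGlu 1 0.51 ± 0.07, adjusted p = 0.00273). Hk3 itself was at 944 CPM in αGlu 1, above the Ctr range of 750.0 to 915, and at 673 and 559 in αGlu 2 and 3, below it. The log2 fold change of Hk3 was -0.18 ± 0.22 (edgeR adjusted p = 0.623), and -0.42 ± 0.13 (adjusted p = 0.0484) without αGlu 1.

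Phosphofructokinase turns fructose 6-phosphate into fructose 1,6-bisphosphate and has a liver-type, a muscle-type and a platelet-type subunit. Pfkl, the liver-type gene (ENSMUSG00000020277, chr10:77986947-78010083, minus strand), was at 20.7, 18.4 and 20.2 CPM in the Ctr libraries against 20.6, 203 and 193 CPM in αGlu 1, 2 and 3. In αGlu 2 and αGlu 3 it was 10.3 and 9.77 times the Ctr mean, and in αGlu 1 1.04 times. The log2 fold change was 2.81 ± 0.80 (edgeR adjusted p = 0.159) over all libraries and 3.32 ± 0.09 (adjusted p = 7.43e-06) without αGlu 1, and DESeq2 called the gene with all 6 libraries (adjusted p = 0.00236). Pfkp, the platelet-type gene (ENSMUSG00000021196, chr13:6579768-6648777, minus strand), went the other way, from 212, 268 and 218 CPM in Ctr to 189, 118 and 110.0 CPM in αGlu. All 3 αGlu libraries were below all Ctr libraries, αGlu 1 by the least. Its log2 fold change was -0.74 ± 0.24 (edgeR adjusted p = 0.162), and without αGlu 1 it fell by 1.03 ± 0.13 on the log2 scale (adjusted p = 0.00146). Pfkm, the muscle-type gene, was scarce, at 6.44 to 9.77 CPM in the Ctr libraries against 8.09, 14.7 and 12.8 CPM in αGlu 1, 2 and 3 (log2 0.58 ± 0.27, edgeR adjusted p = 0.231; without αGlu 1 0.79 ± 0.18, adjusted p = 0.0167).

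The bifunctional PFKFB enzymes make and remove fructose 2,6-bisphosphate, the strongest activator of phosphofructokinase. Pfkfb3, whose product mostly makes it, was at 54.3, 64.2 and 60.7 CPM in the Ctr libraries against 66.5, 207 and 161 CPM in αGlu 1, 2 and 3. It was the one member with a log2 fold change above 1 whose groups did not overlap, although αGlu 1 was only just above the highest Ctr library (1.28 ± 0.40, edgeR adjusted p = 0.161; without αGlu 1 1.62 ± 0.13, adjusted p = 0.000296). Pfkfb4 was at 76.9, 83.2 and 80.2 CPM in the Ctr libraries against 68.2, 44.8 and 46.6 CPM in αGlu. Every αGlu library was lower (log2 -0.59 ± 0.17, edgeR adjusted p = 0.16; without αGlu 1 -0.81 ± 0.07, adjusted p = 0.000463). Pfkfb2 lay between 13.1 and 16.6 CPM throughout, and its fold change turned from 0.03 ± 0.12 to -0.06 ± 0.11 without αGlu 1.

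**Figure D2:**
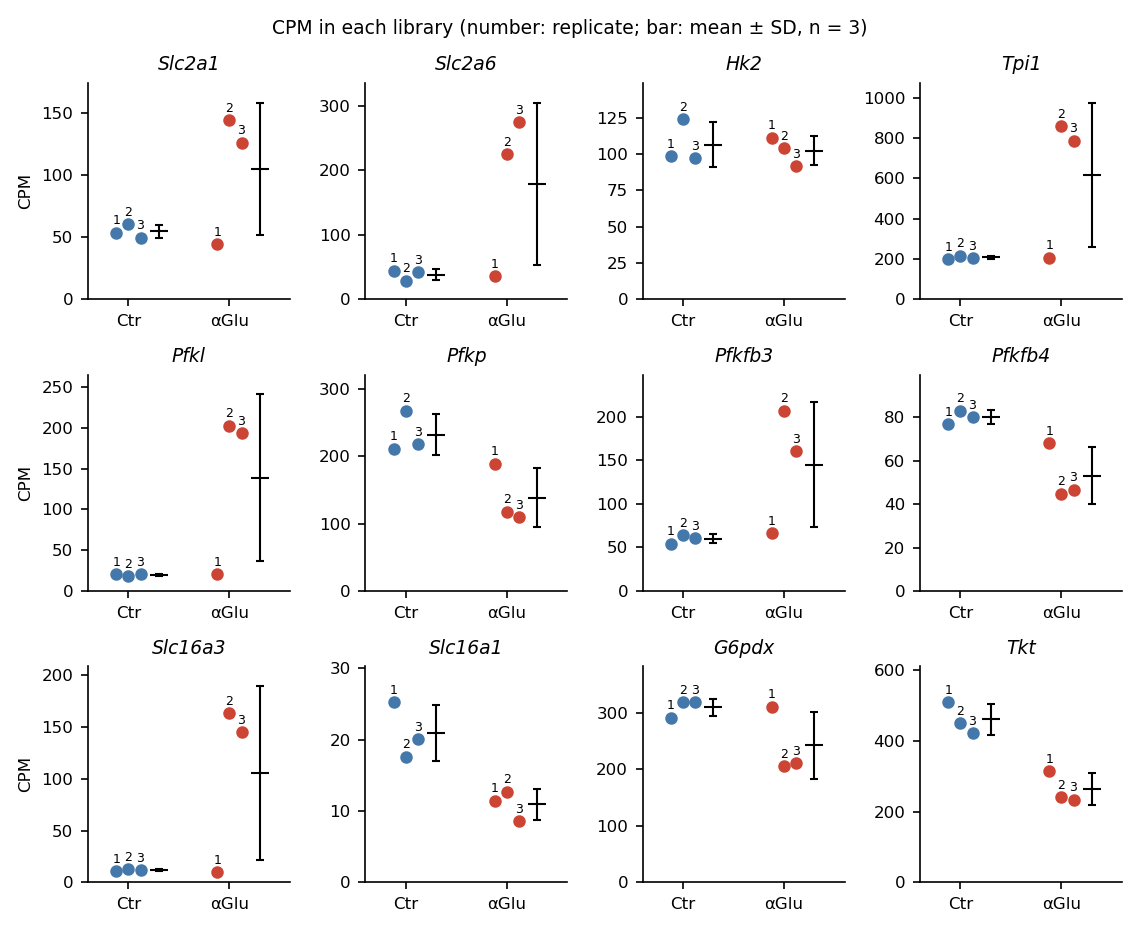
CPM of 12 members in each library, Ctr in blue and αGlu in red, with the replicate number above each point and the mean ± SD (n = 3) beside the points; every vertical axis starts at 0. For Pfkl and Slc16a3 the point of αGlu 1 is level with the Ctr points, at 20.6 and 9.69 CPM, while αGlu 2 and 3 are at 203 and 193 CPM and at 163 and 145 CPM.

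From fructose 1,6-bisphosphate to pyruvate the enzymes are aldolase, triosephosphate isomerase, glyceraldehyde-3-phosphate dehydrogenase, phosphoglycerate kinase and mutase, enolase and pyruvate kinase. Tpi1, which interconverts the 2 triose phosphates, was at 200.4, 217 and 206 CPM in the Ctr libraries against 206, 858 and 787 CPM in αGlu 1, 2 and 3. αGlu 1 lay inside the Ctr range and the others were 4.13 and 3.79 times the Ctr mean (log2 1.57 ± 0.51, edgeR adjusted p = 0.165; without αGlu 1 1.98 ± 0.09, adjusted p = 3.83e-05). Bpgm, which makes the haemoglobin effector 2,3-bisphosphoglycerate, was at 8.90, 8.48 and 9.37 CPM in the Ctr libraries against 10.3, 10.4 and 10.9 CPM in αGlu. The groups did not overlap, but the difference was small (log2 0.24 ± 0.10, edgeR adjusted p = 0.197; without αGlu 1 0.25 ± 0.11, adjusted p = 0.109). For Gpi1, which makes fructose 6-phosphate upstream, and for Aldoa, Aldoc, Gapdh, Pgk1, Pgam1, Eno1 and Pkm, αGlu 2 and αGlu 3 were above and αGlu 1 below all Ctr libraries. Their log2 fold changes ran from 0.12 ± 0.18 for Aldoa to 0.99 ± 0.42 for Gapdh with all libraries, and from 0.26 ± 0.10 for Aldoa to 1.39 ± 0.21 for Aldoc without αGlu 1. Gapdh, often used as a reference gene, was at 241, 234 and 232 CPM in the Ctr libraries against 196, 635 and 570.5 CPM in αGlu. Eno2, the neuronal enolase, stayed between 31.9 and 49.1 CPM in all 6 libraries. Its log2 fold change was -0.17 ± 0.16 (edgeR adjusted p = 0.519), and -0.16 ± 0.18 (adjusted p = 0.491) without αGlu 1.

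Several of these genes, Gapdh, Tpi1, Pgk1, Pgam1, Eno1, Aldoa and Ldha among them, have near-identical processed copies in the mouse genome, and how reads that match several places were counted is not given in the sources used here. Their levels are thus less certain than those of the other members, most of all when genes are compared with each other. Pkm is counted as 1 gene, so its M1 and M2 splice forms were not separated.

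Lactate dehydrogenase A, encoded by Ldha, favours the step from pyruvate to lactate. Ldha was at 518, 579 and 555 CPM in the Ctr libraries against 462, 1280.1 and 1110.4 CPM in αGlu 1, 2 and 3, and αGlu 1 was again the lowest library. The log2 fold change was 0.79 ± 0.37 (edgeR adjusted p = 0.240), and Ldha rose by 1.11 ± 0.10 (adjusted p = 0.000510) without αGlu 1. Ldhb, which favours the reverse step, was scarce, at 4.69 to 12.2 CPM, and its groups overlapped. The log2 fold change of Ldhb was -0.52 ± 0.32 (edgeR adjusted p = 0.324), and -0.43 ± 0.34 (adjusted p = 0.345) without αGlu 1.

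The monocarboxylate transporters held both extremes of the set with all 6 libraries, and without αGlu 1 the lowest log2 fold change was that of Pfkp. Slc16a3 (ENSMUSG00000025161, chr11:120948480-120960868, plus strand) encodes MCT4, which exports lactate from glycolytic cells. It was at 10.9, 12.8 and 11.5 CPM in the Ctr libraries against 9.69, 163 and 145 CPM in αGlu 1, 2 and 3. αGlu 1 was thus below every Ctr library while the other two αGlu libraries were 13.9 and 12.3 times the Ctr mean. With all 6 libraries the fold change was 9.01 (log2 3.17 ± 0.95, edgeR adjusted p = 0.16; DESeq2 adjusted p = 0.00272), and without αGlu 1 the log2 fold change was 3.71 ± 0.10 (edgeR adjusted p = 7.97e-06). Slc16a1 (ENSMUSG00000032902, chr3:104638668-104658462, plus strand) encodes MCT1, which carries lactate and pyruvate in either direction. It was at 25.3, 17.6 and 20.04 CPM in the Ctr libraries against 11.5, 12.7 and 8.58 CPM in αGlu, so that all 3 αGlu libraries were lower, at 0.547, 0.607 and 0.409 times the Ctr mean. The log2 fold change was -0.94 ± 0.20 (edgeR adjusted p = 0.152) and -0.98 ± 0.22 (adjusted p = 0.0145) without αGlu 1.

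Of the 4 genes of the oxidative arm of the pentose phosphate pathway, Pgd alone had no overlap between the groups. G6pdx, whose product glucose-6-phosphate dehydrogenase makes the first NADPH and sets the pathway's rate, was at 291, 318 and 319 CPM in the Ctr libraries against 310.4, 206 and 211 CPM in αGlu 1, 2 and 3. αGlu 1 was inside the Ctr range and the other two were below it (log2 -0.35 ± 0.18, edgeR adjusted p = 0.270; without αGlu 1 -0.57 ± 0.09, adjusted p = 0.00335). Pgd, encoding the dehydrogenase that makes the second NADPH, was at 523, 488 and 470.3 CPM in the Ctr libraries against 425, 394 and 350.5 CPM in αGlu. The αGlu libraries were the 3 lowest, with αGlu 1 nearest to the Ctr libraries (log2 -0.34 ± 0.12, edgeR adjusted p = 0.174; without αGlu 1 -0.41 ± 0.10, adjusted p = 0.0192). Pgls, the lactonase between them, was at 44.5 to 54.7 CPM in Ctr and 38.4 to 49.4 CPM in αGlu (log2 -0.19 ± 0.13, edgeR adjusted p = 0.370; without αGlu 1 -0.32 ± 0.10, adjusted p = 0.0519). H6pd, which does both first steps in the endoplasmic reticulum, was at 60.4 to 66.2 CPM in the Ctr libraries against 63.3 to 85.7 CPM in αGlu, higher in αGlu 2 and αGlu 3 than in any Ctr library (log2 0.23 ± 0.12, edgeR adjusted p = 0.279; without αGlu 1 0.33 ± 0.09, adjusted p = 0.0259).

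In the non-oxidative arm, Tkt (ENSMUSG00000021957, chr14:30548359-30574720, plus strand), encoding transketolase, was at 509, 450.2 and 422 CPM in the Ctr libraries against 315, 241 and 234 CPM in αGlu 1, 2 and 3. The αGlu libraries were all below the Ctr libraries, αGlu 1 among them at 0.683 times the Ctr mean. Its log2 fold change of -0.81 ± 0.16 had the smallest p of the 35 members (edgeR adjusted p = 0.149). Without αGlu 1 it was -0.96 ± 0.11 (edgeR adjusted p = 0.00103). DESeq2 gave Tkt an adjusted p of 0.000457 with all 6 libraries but did not call it, as its log2 fold change of -0.81 did not pass the limit. Taldo1, encoding transaldolase, was at 481 to 545 CPM in the Ctr libraries against 485, 292 and 245 CPM in αGlu, inside the Ctr range in αGlu 1 and below it in the other two (log2 -0.60 ± 0.27, edgeR adjusted p = 0.223; without αGlu 1 -0.95 ± 0.12, adjusted p = 0.00138). Rpia, the isomerase that makes ribose 5-phosphate, was at 16.3, 17.5 and 19.6 CPM in the Ctr libraries against 15.7, 12.9 and 13.1 CPM in αGlu. The groups did not overlap, although αGlu 1 was only just below the lowest Ctr library (log2 -0.36 ± 0.12, edgeR adjusted p = 0.174; without αGlu 1 -0.46 ± 0.11, adjusted p = 0.0169). Rpe, the epimerase of the same pentose, was at 33.4 to 43.8 CPM in the Ctr libraries against 40.3 to 47.2 CPM in αGlu, with αGlu 2 and 3 above all Ctr libraries (log2 0.22 ± 0.12, edgeR adjusted p = 0.291; without αGlu 1 0.29 ± 0.12, adjusted p = 0.0978).

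**Figure D3:**
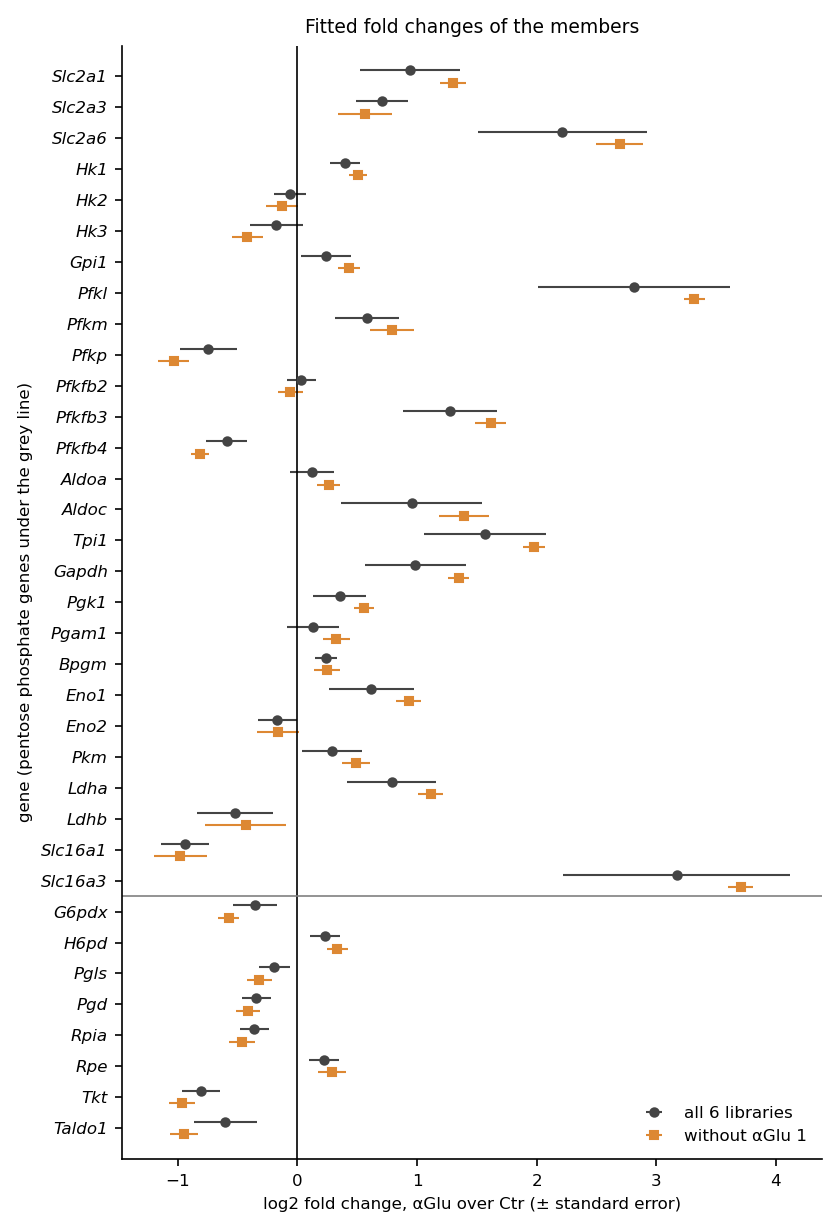
Log2 fold change (αGlu over Ctr) with its standard error for each member, fitted to all 6 libraries (grey circles) and without αGlu 1 (orange squares); genes of the pentose phosphate pathway are under the grey line. Leaving out αGlu 1 moved Slc16a3 from 3.17 to 3.71 and Pfkl from 2.81 to 3.32 and narrowed their errors from 0.95 to 0.10 and from 0.80 to 0.09.

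Levels of different genes can be compared as TPM, which are per length. In Ctr Mφs, Aldoa was the most abundant member (1301 ± 89.3 TPM, SD, n = 3), followed by Pkm (1199 ± 124) and, lower, Taldo1 (718 ± 50.02), Hk3 (671 ± 61.4) and Pgam1 (650.5 ± 73.6). Aldoa and Pkm did not differ beyond their spread, nor did Taldo1, Hk3 and Pgam1. The least abundant were Slc2a3 (0.860 ± 0.125 TPM), Pfkfb2 (6.02 ± 0.523) and Slc16a3 (6.67 ± 0.458), and in αGlu Slc16a3 had a mean of 64.5 ± 51.1 TPM, with αGlu 1 far below the other two.

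Summed over genes, glycolysis and transport took 0.640%, 0.638% and 0.577% of all TPM in Ctr 1, 2 and 3 and 0.560%, 1.05% and 1.001% in αGlu 1, 2 and 3. The pentose phosphate genes took 0.162%, 0.1496% and 0.157% in Ctr and 0.147%, 0.109% and 0.102% in αGlu. The first sum overlapped between the groups through αGlu 1 (two-sided exact permutation test p = 0.4) and the second did not (p = 0.1, the smallest that 3 against 3 libraries can give). Within the 35 genes, the pentose phosphate pathway held 20.2%, 19.0% and 21.4% of the TPM in Ctr, 20.8% in αGlu 1, and 9.36% and 9.24% in αGlu 2 and 3 (exact permutation test p = 0.3). The abundant genes of lower glycolysis weigh most in these sums.

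**Figure D4:**
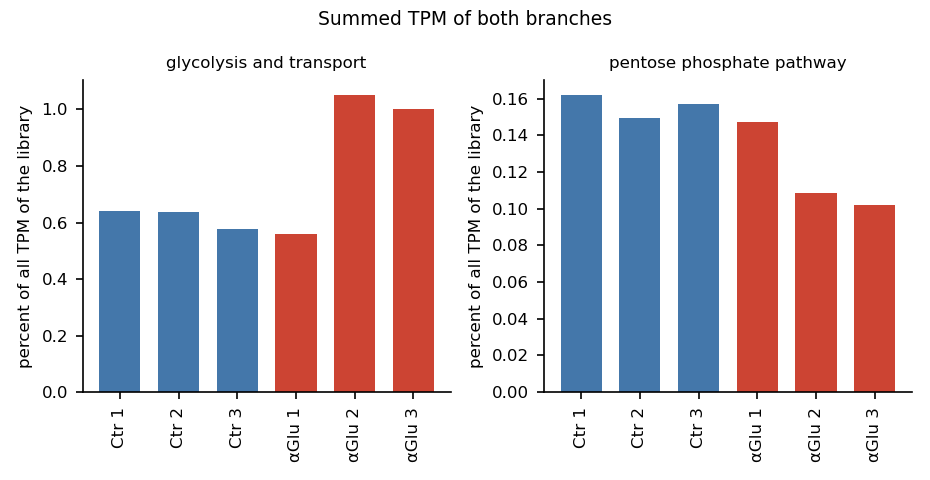
Summed TPM of the 27 genes of glycolysis and transport (left) and of the 8 pentose phosphate genes (right), as a percent of all TPM in each library, Ctr in blue and αGlu in red; both axes start at 0. αGlu 1 is beside the Ctr libraries in both panels, at 0.560% and 0.147%, and αGlu 2 and 3 are higher on the left and lower on the right.

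In 4 families the most abundant isozyme of the Ctr libraries was not that of αGlu 2 and 3. Of phosphofructokinase TPM, Pfkl held 14.2%, 11.2% and 14.02% in Ctr, 15.7% in αGlu 1, and 69.7% and 70.6% in αGlu 2 and 3, while Pfkp held 72.4%, 81.0% and 75.3%, then 71.9%, then 20.1% and 20.02%. Since the summed level of the family was 64.5 to 73.6 TPM in Ctr and 139.5 and 135 TPM in αGlu 2 and 3, the total was higher there as well. Of the monocarboxylate transporters, Slc16a1 held 73.5%, 62.2% and 67.7% in Ctr, 58.7% in αGlu 1, and 8.57% and 6.64% in αGlu 2 and 3. Pfkfb3 held 28.7% to 30.7% of the PFKFB TPM in Ctr, 35.1% in αGlu 1, and 71.2% and 64.8% in αGlu 2 and 3, where Pfkfb4 held 61.6% to 63.1% in Ctr and 23.9% and 29.2% in αGlu 2 and 3. Slc2a6 overtook Slc2a1 among the glucose transporters, from 34.0% to 47.7% in Ctr and 46.3% in αGlu 1 to 62.8% and 70.2% in αGlu 2 and 3.

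One isozyme in each of 8 families was tested with a two-sided exact permutation test, which cannot go below p = 0.1 here. The share of Pfkl, the share of Ldha and the share of Slc16a1 reached that limit with no overlap between groups (exact p = 0.1 each, adjusted over the 8 families p = 0.267). For Slc2a1, whose share of the 3 glucose transporter genes was 51.3% to 65.0% in Ctr and 51.4%, 36.8% and 29.4% in αGlu, the exact p was 0.2 (adjusted p = 0.400). The shares of Hk1, Eno1, Aldoa and Pfkfb2 had an exact p of 0.3 to 0.6.

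**Figure D5:**
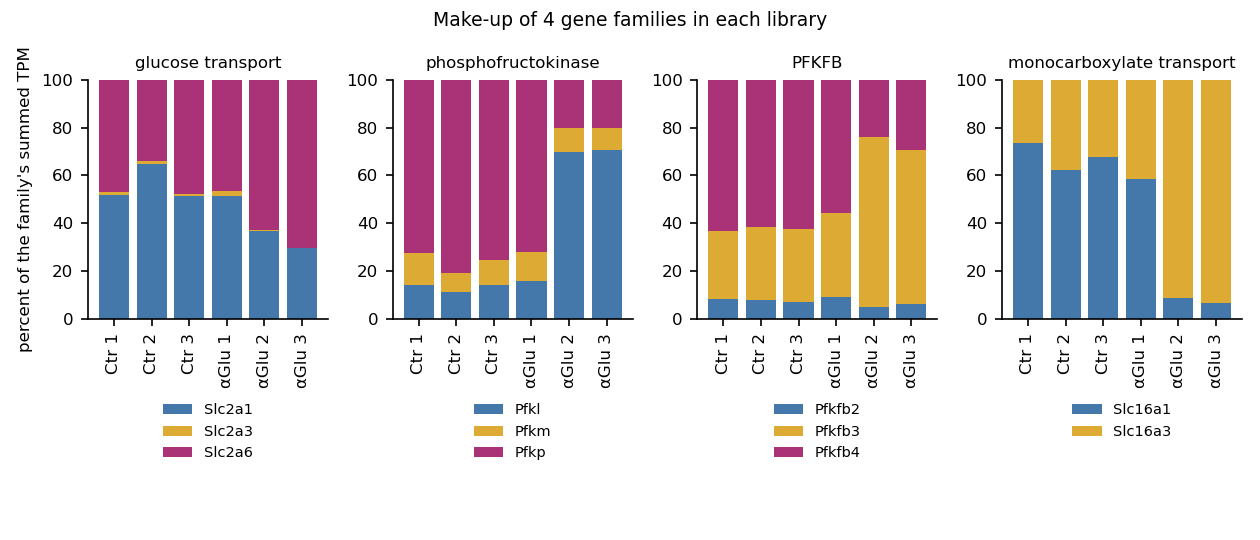
Share of each gene in the summed TPM of its family, in percent, for glucose transporters, phosphofructokinase, PFKFB and monocarboxylate transporters (panels) in the 6 libraries (bars). In αGlu 1 the shares are close to those of the Ctr libraries, with Pfkl at 15.7%, and in αGlu 2 and 3 Pfkl, Pfkfb3 and Slc16a3 each are the largest part of their family.

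The promoters of the 4 genes that exchange places in 2 of these families are shown for context, since HIF-1 and MYC, known regulators of glycolytic genes, bind motifs built on ACGTG and CACGTG. Each is the 250 bases before the RefSeq transcript start (GRCm38.p6), written 5′ to 3′ on the gene's strand, and capitals mark ACGTG on either strand, with CACGTG counted as part of it. The coordinates are chr11:120948817-120949066 (plus strand) for Slc16a3, chr3:104638414-104638663 (plus) for Slc16a1, chr10:78009808-78010057 (minus) for Pfkl and chr13:6648772-6649021 (minus) for Pfkp. The Slc16a3 and Pfkl windows lie inside the genes as GENCODE draws them.
Slc16a3 promoter: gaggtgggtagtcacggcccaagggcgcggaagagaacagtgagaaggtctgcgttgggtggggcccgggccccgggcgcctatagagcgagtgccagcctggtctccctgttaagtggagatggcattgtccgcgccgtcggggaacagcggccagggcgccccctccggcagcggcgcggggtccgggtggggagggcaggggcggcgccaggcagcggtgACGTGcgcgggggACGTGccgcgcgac
Slc16a1 promoter: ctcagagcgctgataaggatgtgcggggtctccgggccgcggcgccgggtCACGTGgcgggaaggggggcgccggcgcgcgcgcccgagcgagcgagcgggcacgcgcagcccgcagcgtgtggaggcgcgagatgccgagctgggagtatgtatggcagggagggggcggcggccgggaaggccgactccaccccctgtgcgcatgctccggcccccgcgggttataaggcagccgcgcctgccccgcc
Pfkl promoter: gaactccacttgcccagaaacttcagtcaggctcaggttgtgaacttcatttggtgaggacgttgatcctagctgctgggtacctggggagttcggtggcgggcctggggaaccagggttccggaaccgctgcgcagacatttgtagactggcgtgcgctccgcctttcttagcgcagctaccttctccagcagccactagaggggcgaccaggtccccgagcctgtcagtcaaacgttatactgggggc
Pfkp promoter: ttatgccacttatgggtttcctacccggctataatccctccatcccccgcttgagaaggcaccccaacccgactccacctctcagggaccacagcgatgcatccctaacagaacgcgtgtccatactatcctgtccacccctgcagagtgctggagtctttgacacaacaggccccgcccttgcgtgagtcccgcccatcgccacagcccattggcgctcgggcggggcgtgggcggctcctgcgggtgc

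Slc16a3 has 2 separate ACGTG matches and Slc16a1 has 1 CACGTG, which reads ACGTG on both strands. Neither phosphofructokinase window holds the motif. A RefSeq promoter was found for 34 of the 35 members, with 49 windows in all, of which 17 held ACGTG on either strand (34.7%), beside 16.6% of 32851 windows over all genes. All 17 belonged to glycolysis and transport (40 windows), and the 9 windows of the pentose phosphate genes held none. With so few windows in the second set, this difference was not tested. Some genes have several windows, which can overlap. Among members at an unadjusted p under 0.05, 3 of 9 windows of those higher in αGlu held the motif, and 1 of 7 of those lower. Members' windows were richer in GC (median 59.2%, beside 52.4%), which the count does not take into account. A match is a string of letters and was not tested for binding.

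Other genes of the same metabolism were read from 4 lists. At an unadjusted p under 0.05, 12.7% of all genes tested were higher in αGlu and 11.9% lower. The counts of each list stand beside these shares and were not tested against them. Of 41 further genes of glycolysis and the pentose phosphate pathway, among them tissue-specific isozymes, 22 were tested, 5 of these were higher and 1 lower at an unadjusted p under 0.05, and the median log2 fold change was 0.0034. The smallest p-values were those of Slc2a9, a urate and fructose transporter (log2 0.94 ± 0.23, edgeR adjusted p = 0.156), Eno3, the muscle enolase (0.90 ± 0.23, adjusted p = 0.156), and Prps1, which makes phosphoribosyl pyrophosphate from ribose 5-phosphate (0.79 ± 0.26, adjusted p = 0.164). Slc2a9 was at 13.3 to 14.2 CPM in the Ctr libraries against 17.4, 31.0 and 30.8 CPM in αGlu, so αGlu 1 was above the Ctr range here. Without αGlu 1 the log2 fold changes of Slc2a9, Eno3 and Prps1 were 1.16, 1.07 and 1.01.

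On the glycogen list, 17 of 18 genes were tested, with a median of 0.067. At an unadjusted p under 0.05, 4 were higher and 0 lower (12.7% and 11.9% of all genes were). Phka1, a regulatory subunit of phosphorylase kinase (log2 1.16 ± 0.26, edgeR adjusted p = 0.156), Gbe1, the branching enzyme (0.43 ± 0.14, adjusted p = 0.163), and Gys1, glycogen synthase (1.496 ± 0.49, adjusted p = 0.167), came first. Gys1 was at 12.8 to 15.6 CPM in the Ctr libraries against 13.8, 55.1 and 49.1 CPM in αGlu. Without αGlu 1 the log2 fold changes of Phka1, Gbe1 and Gys1 were 1.33, 0.55 and 1.89. Of 13 tested genes for the entry of fructose, mannose and galactose and for hexosamine synthesis, 4 were higher and 1 lower, with a median of 0.072. Gfpt1, the first enzyme of hexosamine synthesis (0.54 ± 0.13, adjusted p = 0.156), and Galt, a galactose enzyme (0.41 ± 0.12, adjusted p = 0.16), were higher and Akr1b3, aldose reductase, lower (-0.52 ± 0.16, adjusted p = 0.161), and without αGlu 1 their log2 fold changes were 0.62, 0.51 and -0.71.

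The list of HIF-1 targets outside glycolysis had the highest median of the 4, 0.70 over 13 tested genes. At an unadjusted p under 0.05, 4 were higher and 2 lower (12.7% and 11.9% of all genes were). Vegfa, the vascular growth factor, was at 33.4 to 44.2 CPM in the Ctr libraries against 62.2, 127 and 87.4 CPM in αGlu 1, 2 and 3, each above every Ctr library (log2 1.23 ± 0.27, edgeR adjusted p = 0.155; without αGlu 1 1.45, adjusted p = 0.00161). Bnip3, a mitophagy receptor, was at 11.03 to 11.9 CPM in the Ctr libraries against 11.5, 67.0 and 66.5 CPM in αGlu, and P4ha1, a collagen prolyl hydroxylase, at 67.8 to 85.6 CPM and at 88.4, 163 and 158 CPM. Without αGlu 1, 9 genes of this list rose and 1 fell past the threshold, out of 15 then tested, beside 8.05% and 10.5% of all genes. The other 3 lists, with 22, 17 and 13 genes then tested, together had 8 genes that rose and 3 that fell. No gene of the 4 lists was called by edgeR with all 6 libraries. DESeq2 called 7, beside 8.13% of all the genes it tested, and this count was not tested against that share.

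Summed markers of inflammatory activation were highest in αGlu 2 and 3, and αGlu 1 was above every Ctr library as well. The summed level of 11 genes of the response to LPS and IFN-γ was 29.3 to 58.9 CPM in Ctr and 339, 2135 and 1803 CPM in αGlu 1, 2 and 3. Il1b was at 0.06, 322 and 345 CPM in αGlu 1, 2 and 3, beside at most 0.45 CPM in Ctr, whereas Ccl5 was at 274, 1090.3 and 1031 CPM, beside at most 13.5 CPM. Ccl5 thus gave most of the sum in αGlu 1. In that library Nos2, Tnf and Cd40 were inside the Ctr range, and Ptgs2, Cxcl9 and Cd86 were among those above it. The sum of 9 genes of the IL-4 and IL-13 response was 2774 to 4497 CPM in Ctr and 3990.2 to 5057 CPM in αGlu, and of its 7 tested genes 3 had a positive and 4 a negative log2 fold change. Chil3 alone gave 1479 to 3529 CPM of the sum in the 6 libraries. Retnla was at 540, 245 and 289 CPM in Ctr and 101, 0.03 and 0.04 CPM in αGlu 1, 2 and 3. Mrc1 was at 771 to 948 CPM in the Ctr libraries against 840.3, 1513 and 2379 CPM in αGlu 1, 2 and 3, whereas Mgl2 was at 66.3 to 87.9 CPM against 10.6, 0.504 and 2.35 CPM. The part of these changes in the values of the glycolytic genes was not tested.

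The libraries carried the markers of Mφs: all 10 macrophage genes were tested, with Csf1r at 2400.3 to 3055 CPM and Adgre1 at 822 to 1595 CPM in the 6 libraries. The sum of the 10 was 12134 to 13660 CPM in Ctr and 12865 to 19066 CPM in αGlu, of which Lyz2 gave 5694 to 11065 CPM. Of the 10, 7 had a positive and 3 a negative log2 fold change. Cd68 was at 1809 to 2063 CPM in Ctr and 1990, 1237 and 1144 CPM in αGlu 1, 2 and 3. Cd14 was at 17.3 to 30.1 CPM in Ctr and 12.4, 293 and 240 CPM in αGlu 1, 2 and 3. Of 12 neutrophil markers, 4 had a mean above 1 CPM. Their sum was 129 to 211 CPM in Ctr and 241 to 636 CPM in αGlu, with Csf3r at 103 to 158 CPM in Ctr and 183 to 607 CPM in αGlu and Mmp8 at 21.7 to 63.0 CPM in all 6 libraries, while Ly6g and Retnlg were at 0 in every library and S100a8, S100a9, Camp and Elane at no more than 2.11 CPM. The sums were 108 to 385 CPM for 8 dendritic cell markers, where Bst2 gave most and Xcr1 was at 0, 2.09 to 8.09 CPM for 8 fibroblast markers, at most 1.04 CPM for 7 erythroid markers and at most 0.504 CPM for 8 lymphocyte markers.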

How the data were processed

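mRNA of 3 Ctr and 3 αGlu libraries was measured by stranded RNA sequencing. The authors deposited 1 table of 41549 genes, made with the QIAGEN RNA-seq Analysis Portal. Counts were deposited by the authors as raw, whole reads of each gene, and the deposited TPM values are those reads scaled by gene length and summing to 1000000 in each library. RPKM and CPM columns were not used. GRCm38 is named in the submitters' processing notes. The aligner, the annotation and the treatment of reads that match several places are not given in the sources used here.

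Counts were filtered with filterByExpr (minimum count 10, minimum total 15), scaled with TMM factors (0.951 to 1.07) and fitted with edgeR 4.0.16 (R 4.3.3) by a quasi-likelihood model, with group and no other term. Standard errors of log2 fold changes were derived from the quasi-likelihood test, as the absolute log2 fold change over the square root of its F statistic. All p-values are two-sided, and those of the fits were adjusted by the Benjamini-Hochberg method over the genes tested. The call needed an absolute log2 fold change above 1 besides an adjusted p under 0.1. For CPM, counts were divided by library sizes multiplied by TMM factors, with a prior count of 2 on the log2 scale used for correlations. Shares of TPM were compared with exact permutation tests (scipy 1.17.1). Every pair of libraries differed by more than sampling noise and each was taken as 1 sample; where the labels name no separate animals, p-values measure the spread between these libraries. The fits were tested on simulated data for all 11933 genes. Both groups were drawn with the spread of the Ctr libraries and without an outlying library, so the simulation does not cover a library such as αGlu 1. Gene positions are from GENCODE M21.

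The members and the lists were chosen with earlier results of these data known. Values in every library are given for Slc2a1, Hk2, Pfkl, Pfkfb3, Ldha and G6pdx, for members with an absolute log2 fold change above 1 and for members whose groups do not overlap in CPM. Other members are given by range, and from each other metabolic list the 3 tested genes with the smallest p are named where none was called. Single values of Gapdh, Taldo1, Hk3, Pfkm, H6pd, Pgls, Rpe and of marker genes were picked with their values known. Alternatives tried were RLE factors, library size alone, all genes with a read, DESeq2 1.42.0, limma-voom (limma 3.58.1), the replicate number as a block, no limit on the fold change, shares of CPM in place of TPM, and each library left out in turn.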

Additional observations from a re-analysis of the deposited data

How the results depend on the processing

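With all 6 libraries no member was called under limma-voom, RLE factors, library size alone, a fit to all genes with a read, the replicate block, no limit on the fold change, or with any library other than αGlu 1 left out. DESeq2 called 5 members and 1117 genes. When each library was left out in turn, the members called ranged from 0 to 10 and the genes called from 0 to 2290, the higher numbers without αGlu 1, and members at an unadjusted p under 0.05 ranged from 6 (without Ctr 2) to 30 (without αGlu 1), beside 14 with all libraries. The share of all genes at that unadjusted p was 24.7% with all libraries. It was not counted for the other fits, so whether their member counts exceed the share of all genes cannot be told. Without αGlu 1, 49.1% of all genes had an adjusted p under 0.1. Of the other 4 metabolic lists, DESeq2 called 7 genes, beside 8.13% of all the genes it tested. As libraries were left out 0 to 21 were called, with 21 without αGlu 1, where 18.6% of all genes were called. The median log2 fold change of the members stayed between 0.12 (without αGlu 2) and 0.33 (without αGlu 1). With library size alone, the median was 0.1004 over all genes and 0.32 over the members. Of 420 member fold changes under alternatives, 398 kept their direction and their side of the threshold, 15 passed it and 7 turned sign: Hk2 with library size alone (0.025), without Ctr 2 (0.061) and without αGlu 3 (0.018; lowest with a library left out -0.127, without αGlu 1), Pfkfb2 without Ctr 3 (-0.033) and without αGlu 1 (-0.059; highest with a library left out 0.105, without αGlu 2, and 0.117 with library size alone), Pgam1 without αGlu 2 (-0.017; highest 0.33, without αGlu 1) and Eno2 without Ctr 2 (0.0095; lowest -0.307, without Ctr 3), none of them past the threshold. The difference in the share of Pfkfb2 also turned without αGlu 2, to 0.023 percentage points, and reached -2.13 without αGlu 1. Same-numbered libraries deviated from their group means with correlations of 0.076, 0.065 and 0.154, which do not all exceed 0.1, so the fit without the block was kept. Each library correlated best with that of its own number in the other group. In another assay of transfected Mφs the study compared αGlu with Ctr by a paired t test. Whether a number marks a shared preparation in these libraries is not given in the sources used here. With the replicate block, 17 genes were called but 0 members, and 10 members had an unadjusted p under 0.05. The causes of these changes were not tested. The scarcest member, Slc2a3, was at 1.88 to 4.01 CPM.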
